A study of Mus musculus with 6 samples.

Results

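A set of 8 genes of ion transport and barrier function in the retinal pigment epithelium (RPE) were followed in the retina of 5XFAD mice: Best1, Kcnj13, Slc16a8, Slc6a20a, Slc26a7, Cldn19, Ttr and Rrh. They were given by name, with earlier results of these data known and with no threshold on their values, and all 8 were among the 19401 genes listed in at least 1 library. All 8 also passed the filter on low counts, at least 10 counts in at least 3 libraries, which 15537 genes passed. Retinal RNAseq was carried out on 3 libraries from control and 3 libraries from efavirenz-treated (EFV-treated) mice, where EFV is an anti-HIV drug. Mice of both groups were 9-month-old males of the 5XFAD line on a B6SJL background, a model of Alzheimer's disease whose transgenes are driven by the neuronal Thy1 promoter, and no mouse without the transgenes was in the series. EFV was given in drinking water from 3 to 9 months of age at 0.08 mg/kg of body weight according to the labels (the methods of the study state a somewhat higher daily dose), and the controls drank water with the vehicle. Each library was a pool of one retina plus RPE from each of 5 to 6 mice, so that p-values measure the spread between pools and not between animals.

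The RPE is a single layer of pigmented cells between the photoreceptors and the choroidal vessels, and forms the outer blood-retinal barrier. Tight junctions seal the space between its cells, while channels and carriers in its apical and basolateral membranes move water, chloride, potassium, lactate and amino acids between the retina and the blood. The cells also carry out the recycling of the visual chromophore and secrete proteins that carry retinol and thyroid hormone. Best1 encodes a calcium-activated chloride channel of the basolateral membrane, Kcnj13 an inwardly rectifying potassium channel of the apical membrane, Slc16a8 a monocarboxylate transporter that exports lactate, Slc6a20a a sodium-dependent carrier of proline and other imino acids, Slc26a7 an anion exchanger, and Cldn19 a claudin of the tight junctions. Ttr encodes transthyretin, the carrier of thyroxine and retinol-binding protein, and Rrh encodes peropsin, an opsin of the RPE microvilli.

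The libraries held 23455167 to 24590278 counts each, with TMM scaling factors, which correct the library sizes for composition, of 0.984 to 1.01. RPE transcripts were a small part of each library: the summed FPKM (the count divided by gene length and library size) of 12 other genes used as an RPE reference (Rpe65, Lrat, Rgr, Rdh5, Stra6, Tyr, Tyrp1, Dct, Pmel, Mlana, Krt18 and Cdh3) was 49.7 to 79.8 in the controls and 73.6 to 83.2 in EFV-treated mice, against 26599 to 28796 over 10 rod genes. Krt18 alone had 30.96 to 50.57 FPKM, a large part of each RPE reference sum. Control replicate 2 had the lowest summed level of the RPE reference, and also the lowest mean level when each gene had the same weight. Control replicate 3 stood apart in lens transcripts, with a summed FPKM of 2125 over 8 lens genes against 18.7 to 106 in the other 5 libraries. Many fold changes and calls that rest on either library are also given without it. Levels of the members relative to the RPE reference, and fits with it as a covariate, were calculated on all libraries only. In these bulk samples, fewer RPE cells and less RNA per RPE cell cannot be told apart.

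The promoter of Kcnj13 is shown because Kcnj13 was the member whose groups did not overlap, and because its window alone is free of annotated exons. The window is the 250 bases upstream of its RefSeq start, chr1:87394730-87394979 on the minus strand of GRCm38.p6, and lies in an intron of Gigyf2. The capitals mark a match to an E-box (CATGTG, here read as its reverse complement CACATG), a hexamer bound by the MITF family of pigment cell factors; the match starts 112 bases upstream of the gene start.
Kcnj13: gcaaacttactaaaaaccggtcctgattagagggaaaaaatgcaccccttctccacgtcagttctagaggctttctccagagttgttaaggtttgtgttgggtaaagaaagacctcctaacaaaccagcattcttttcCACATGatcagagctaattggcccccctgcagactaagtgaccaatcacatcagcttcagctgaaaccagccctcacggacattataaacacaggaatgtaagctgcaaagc
RefSeq promoters were matched for 6 of the 8 members, in 7 windows; Ttr and Slc26a7 had no entry. The windows of Slc16a8, Slc6a20a, Cldn19 and Rrh run into the first exon of the gene itself as GENCODE annotates it, and that of Best1 into the first exon of Rab3il1, so that these counts are not of promoter sequence alone. CATGTG or CACATG was found on either strand in 1 of the 7 windows and in 12.3% of 32851 promoter windows of the same length. The palindromic E-box CACGTG was found in 0 of the 7 windows and in 6.02% of all windows. TAATCC or GGATTA, the core recognised by OTX2, was found in 1 of the 7 windows, that of Best1, and in 6.25% of all windows. The windows of Slc16a8, Slc6a20a, Cldn19 and Rrh held none of these letters.

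The levels of the members, compared per length as mean FPKM over the 6 libraries, fell into 3 tiers. Ttr at 28.3 and Rrh at 17.9 were the most abundant. Slc16a8 at 2.24, Kcnj13 at 1.19 and Slc6a20a at 1.11 followed, and Cldn19 at 0.392, Slc26a7 at 0.313 and Best1 at 0.305 were the lowest. Slc16a8 exceeded its neighbour Kcnj13 in 6 of 6 libraries, although their ranges overlapped. The other neighbours within a tier changed places between libraries: Ttr ranged from 14.5 to 34.4 FPKM and Rrh from 15.96 to 19.1, Kcnj13 ranged from 0.81 to 1.54 FPKM and Slc6a20a from 0.67 to 1.72, while Slc26a7 ranged from 0.25 to 0.42 and Best1 from 0.14 to 0.55.

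Kcnj13 was higher in every EFV-treated library than in every control library and was the 1 member of 8 that passed the limits the study used for differential expression (an unadjusted p of at most 0.05 and a log2 fold change of at least 0.0976 in size, here with the edgeR test). Those limits were passed by 3.01% of all genes tested, 1.47% being higher and 1.54% lower in EFV-treated mice. At an adjusted p of 0.05, edgeR's quasi-likelihood test with Benjamini-Hochberg adjustment called 0 of the 8 members and 0% of the 15537 genes; 1 member and 472 genes (3.04%) had an unadjusted p under 0.05. DESeq2 called 0 members and 11 genes at the same adjusted limit, and limma on log2 FPKM called 0 members and 0 genes. A Poisson model, the kind the study names, which holds counting error only, called 4 members (Kcnj13, Slc16a8, Slc6a20a and Ttr) and 2043 genes. Without EFV replicate 1, the edgeR count at the study's limits was 3 members (Kcnj13, Slc16a8 and Slc6a20a), without control replicate 3 it was 2 (Kcnj13 and Slc16a8), and without control replicate 2 it remained at 1. Kcnj13 and Slc16a8 are also in the list of genes that the study chose on these libraries, so their direction is not independent of it.

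The fold change was above 1 for 7 of the 8 members, against 50.5% of all genes tested with a log2 fold change above 0. Their median log2 fold change was 0.33, against 0.00121 over all genes tested and 0.41 over the RPE reference genes. Control replicate 2 was the lowest of the 6 libraries for 4 members, Kcnj13, Slc16a8, Slc6a20a and Ttr, as it was for 9 of the 12 RPE reference genes and for 18.0% of all genes tested. Without control replicate 2 the members' median log2 fold change was 0.25, and Cldn19 turned to -0.08. Among the 7 members above 0 with all libraries, Cldn19 at 0.03 and Best1 at 0.10 were small beside their SEs of 0.36 and 0.47.

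**Figure D1:**
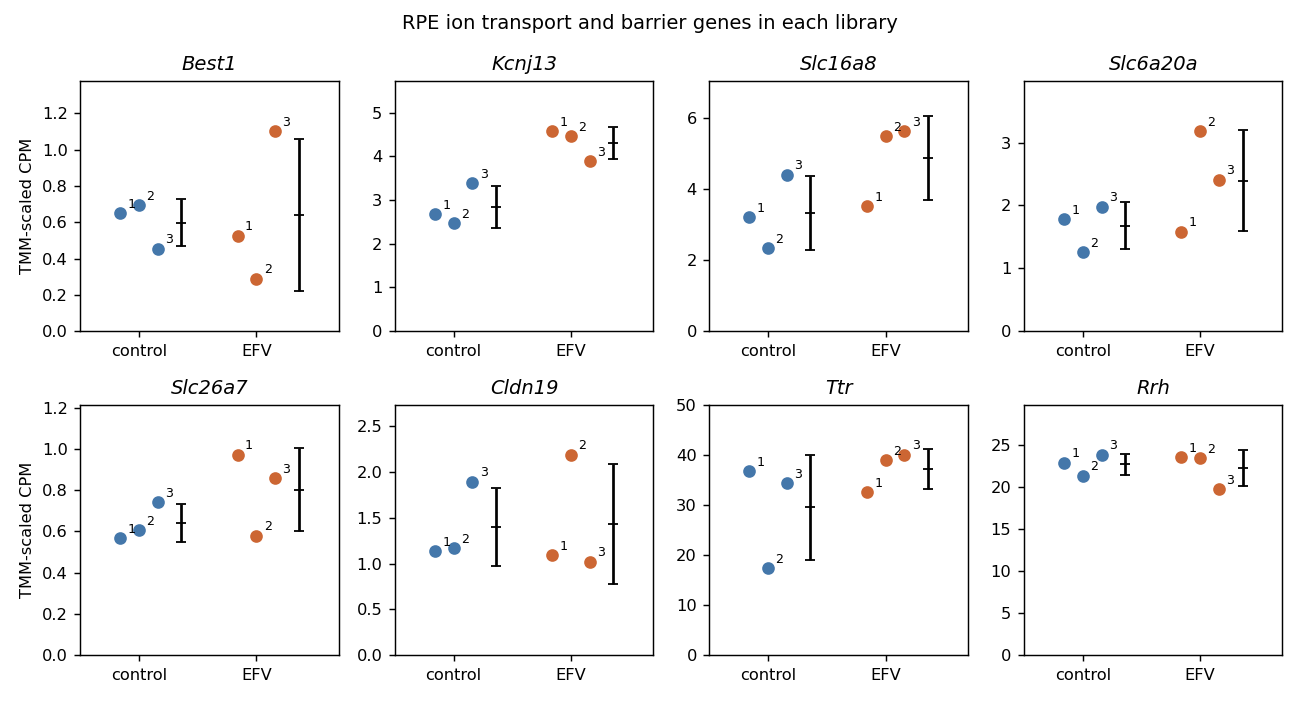
Library-scaled counts (CPM, with TMM factors) of the 8 members in each library, on axes that start at 0. Points are libraries numbered by replicate, blue for control and orange for EFV, and the black mark and bar are the group mean ± SD (n = 3); the groups separate for Kcnj13 and overlap for the other 7 members.

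Among the channels, Kcnj13 (Entrez 100040591, chromosome 1, 87386363 to 87394729, minus strand, mm10) had FPKM of 0.89, 0.81 and 1.12 in control replicates 1, 2 and 3 and of 1.54, 1.48 and 1.31 in EFV replicates 1, 2 and 3. The lowest EFV-treated library lay above the highest control library, both in FPKM and in CPM, the count scaled by library size after TMM correction. Groups that did not overlap in CPM were found for 1 of the 8 members and for 8.14% of all genes tested, with EFV-treated above control in 3.95% and below in 4.18%. In FPKM this was again 1 member, against 7.67% of all genes, 4.99% with EFV-treated above and 2.68% below. The means were 0.940 ± 0.161 and 1.44 ± 0.119 FPKM (SD, n = 3), a fold of 1.51 (95% interval 1.15 to 1.99) and a log2 fold change of 0.60 with an SE of 0.18. The unadjusted p was 0.00800 and the adjusted p 0.999 (edgeR quasi-likelihood test with Benjamini-Hochberg adjustment), and an exact two-sided permutation test of the CPM gave 0.1, the smallest p that 3 against 3 libraries allow. The counts behind these values were 66, 57 and 82 in the controls and 113, 108 and 95 in EFV-treated mice. The log2 fold change stayed within 0.51 to 0.74 when any 1 library was left out. With the mean of the RPE reference genes as a covariate, it was 0.51 with an unadjusted p of 0.0522 (edgeR). Kcnj13 lies inside Gigyf2 on the opposite strand; Gigyf2 is more abundant, at 27.5 to 30.3 FPKM, and had a log2 fold change of -0.03. The strandedness of the libraries is not given in the sources used here, so reads of Gigyf2 within Kcnj13 could not be told apart from its own. Annotated genes also overlap Slc16a8, Slc6a20a and Cldn19. Of these only Ccr9, on the strand opposite Slc6a20a, had a value here, at 0.1 to 0.22 FPKM.

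Best1 (Entrez 24115, chromosome 19, 9985174 to 10001633, minus strand) had the fewest counts of the members. It had 16, 16 and 11 counts in the controls and 13, 7 and 27 in EFV-treated mice, or 0.32, 0.34 and 0.22 against 0.26, 0.14 and 0.55 FPKM. EFV-treated mice held both the lowest library, replicate 2, and the highest, replicate 3, and the control values lay between them. The means were 0.293 ± 0.0643 and 0.317 ± 0.211 FPKM (SD, n = 3), and the 95% interval of the fold ran from 0.510 to 2.24. Without EFV replicate 3 the log2 fold change turned from 0.10 to -0.54, and without control replicate 3 it turned to -0.07. Its coefficient of variation over the 6 libraries was 44.8%, against 25.8% from counting error alone. Fth1, the ferritin heavy chain gene, lies 76 bases from Best1 on the opposite strand at 560 to 583 FPKM, and had a log2 fold change of -0.03. Rab3il1 lies nearer, 36 bases away and also on the opposite strand, at 2.41 to 3.99 FPKM with a log2 fold change of 0.19.

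The transporter Slc16a8 (Entrez 57274, chromosome 15, 79251014 to 79254761, minus strand) had FPKM of 1.75, 1.26 and 2.40 in the controls and of 1.94, 2.99 and 3.12 in EFV-treated mice. EFV replicates 2 and 3 were above all controls, but EFV replicate 1 was below control replicate 3, and the groups overlapped. The means were 1.80 ± 0.572 and 2.68 ± 0.647 FPKM (SD, n = 3), a fold of 1.47 with a 95% interval from 0.976 to 2.21. The unadjusted p was 0.0621 with edgeR, and the call depended on the libraries and the test: the log2 fold change was 0.55 with all libraries, 0.74 with an unadjusted p of 0.0188 without EFV replicate 1, and 0.81 with an unadjusted p of 0.0125 without control replicate 3. Without control replicate 2 it was 0.36 with an unadjusted p of 0.197, and DESeq2 on all libraries gave an unadjusted p of 0.0377. With the RPE reference as a covariate, the log2 fold change was 0.13.

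Slc6a20a (Entrez 102680, chromosome 9, 123634770 to 123678885, minus strand) showed a similar pattern at lower counts. It had 44, 29 and 48 counts in the controls and 39, 77 and 59 in EFV-treated mice. EFV replicates 2 and 3 were again above all controls, whereas EFV replicate 1 was below control replicates 1 and 3. The means were 0.903 ± 0.208 and 1.31 ± 0.425 FPKM (SD, n = 3), a fold of 1.42 (95% interval 0.899 to 2.26) with an unadjusted p of 0.116 (edgeR). Without EFV replicate 1 the log2 fold change rose from 0.51 to 0.74 with an unadjusted p of 0.0262, without EFV replicate 2 it was 0.25, and with the RPE reference as a covariate it was 0.05. The near-identical paralog Slc6a20b, 2205 bases away on the same strand, was listed at 0.03 FPKM or less in every library. How many reads match both genes was not tested, so the split between the pair is uncertain.

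Slc26a7 (Entrez 208890, chromosome 4, 14502430 to 14621805, minus strand) had 14, 14 and 18 counts in the controls and 24, 14 and 21 in EFV-treated mice. The FPKM were 0.25, 0.26 and 0.32 against 0.42, 0.25 and 0.38. EFV replicates 1 and 3 were above the controls and EFV replicate 2 was among the lowest libraries. The means were 0.277 ± 0.0379 and 0.350 ± 0.0889 FPKM (SD, n = 3), a fold of 1.26 (95% interval 0.771 to 2.04) with an unadjusted p of 0.319 (edgeR). Its coefficient of variation over the 6 libraries was 23.1%, against 23.9% from counting error alone, so that no difference between libraries beyond counting was detectable at this depth.

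The barrier gene Cldn19 (Entrez 242653, chromosome 4, 119255414 to 119262438, plus strand) did not separate the groups. It had 28, 27 and 46 counts in the controls and 27, 53 and 25 in EFV-treated mice. Control replicate 3 and EFV replicate 2 were high and the other 4 libraries were alike at 25 to 28 counts, so that each group held 1 high library. On the FPKM scale the values were 0.27, 0.49 and 0.45 against 0.26, 0.63 and 0.25, which puts control replicate 2 among the high libraries. The FPKM of control replicate 2 was calculated over a length of 2412 bases and that of control replicate 1 over 4236 bases, because the length follows the share the authors' counting gave to each transcript. The means were 0.403 ± 0.117 and 0.380 ± 0.217 FPKM (SD, n = 3), while the counts gave a fold of 1.02 (95% interval 0.584 to 1.79), with an unadjusted p of 0.930 (edgeR). The sign depended on single libraries: the log2 fold change was 0.03 with all of them, -0.41 without EFV replicate 2, -0.10 without control replicate 1 and -0.08 without control replicate 2. Best2, a bestrophin of the ciliary epithelium, was also highest in control replicate 3 and EFV replicate 2, with 0.62, 0.38 and 0.73 FPKM in the controls and 0.47, 1.27 and 0.39 in EFV-treated mice. Cldn2, another claudin, had 0.40, 0.44 and 0.75 against 0.26, 1.2 and 0.30 FPKM, and was picked together with Best2 after its values were seen. Best2 was 1 of 5 genes in a list for ciliary body and iris. The other genes of that list did not share both highs. Myoc had its lowest FPKM in control replicate 3 (0.18). Acta2 was high in control replicate 3 (4.41) but lowest in EFV replicate 2 (1.36). Des was high in EFV replicate 2 (0.44) but not in control replicate 3 (0.33), and Aqp1 ranged only from 56.09 to 60.5. The part of ciliary tissue in the Cldn19 values was not tested.

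The secreted carrier Ttr (Entrez 22139, chromosome 18, 20665280 to 20674321, plus strand) was the most abundant member and differed mainly in 1 library. Its FPKM were 31.2, 14.5 and 29.0 in the controls and 27.8, 32.9 and 34.4 in EFV-treated mice. Control replicate 2 stood far below the other 5 libraries, and control replicates 1 and 3 were above EFV replicate 1. The means were 24.9 ± 9.09 and 31.7 ± 3.45 FPKM (SD, n = 3), a fold of 1.26 (95% interval 0.878 to 1.80) with an unadjusted p of 0.183 (edgeR). Without control replicate 2 the log2 fold change fell from 0.33 to 0.06 with an SE of 0.10, and with the RPE reference as a covariate it was -0.10. The highest Ttr level was 2.30 times the lowest in CPM, a ratio reached by 0.560% of the 8213 genes with a mean of at least 500 counts, for which the median ratio was 1.13. The lowest library had 401 counts and the highest 980, so this spread was not one of counting: the coefficient of variation was 24.9%, against 3.51% from counting error alone.

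The opsin Rrh (Entrez 20132, chromosome 3, 129804408 to 129822587, minus strand) was the steadiest member. It had FPKM of 17.9, 16.9 and 18.7 in the controls and of 19.1, 18.8 and 15.96 in EFV-treated mice. The groups overlapped, and the lowest library was EFV replicate 3. The means were 17.8 ± 0.924 and 17.9 ± 1.72 FPKM (SD, n = 3), and the counts gave a fold of 0.980 with a 95% interval from 0.859 to 1.12, the narrowest among the members; the unadjusted p was 0.737 (edgeR). Its log2 fold change of -0.03 turned to 0.05 without EFV replicate 3 and to 0.00758 without control replicate 3. With a mean of 543 counts per library, against 811 for Ttr, Rrh varied by 7.08% over the libraries against 4.29% from counting error. Control replicate 2, in which Ttr was low, had 491 counts of Rrh against 563 and 577 in the other controls. Rrh was also more abundant per length than Rpe65, the retinoid isomerase of the RPE, which had 4.23 ± 1.71 FPKM in the controls and 6.44 ± 0.344 in EFV-treated mice (SD, n = 3). Lrit3, a photoreceptor synapse gene, lies 378 bases from Rrh on the same strand and was present at 14.5 to 17.9 FPKM; whether its reads enter the Rrh value was not tested. The deposited Rrh value also counts a transcript with the identifier of the sequencing provider in place of a RefSeq one.

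**Figure D2:**
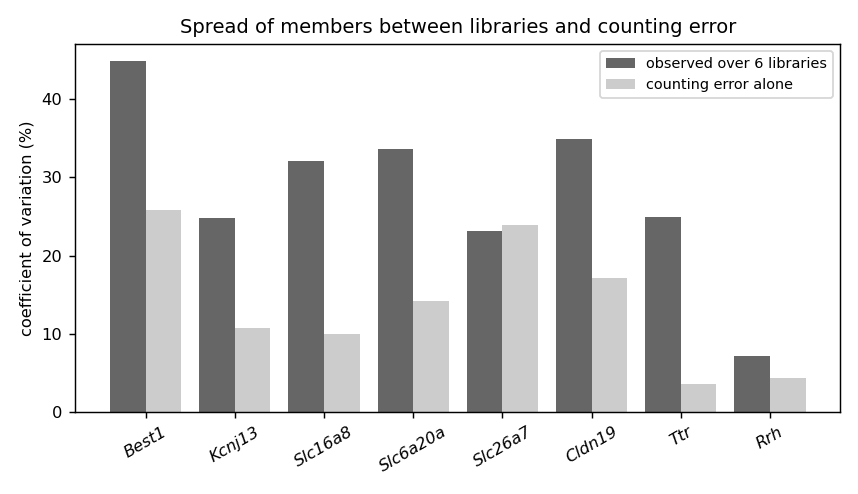
Coefficient of variation (percent) of each member's CPM over the 6 libraries (dark bars) beside that from counting error alone (light bars), both from 0. Slc26a7 varied no more than counting error (23.1% and 23.9%), whereas Ttr varied by 24.9% against 3.51%.

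The members differed in how closely they followed the RPE reference genes from library to library. The mean centred log2 CPM of the 12 reference genes was 0.05, -0.71 and 0.04 in control replicates 1, 2 and 3 and -0.06, 0.39 and 0.28 in EFV replicates 1, 2 and 3. The root-mean-square distance of Ttr from this profile was 0.111 on the log2 scale, against a deviation of 0.409 from its own mean. Slc6a20a at 0.175 and Slc16a8 at 0.183 were the next closest, with own deviations of 0.411 and 0.438. Kcnj13 was between, at 0.274 against 0.333. The other 4 members were farther from the reference profile than from a flat line: 0.354 against 0.0959 for Rrh, 0.412 against 0.266 for Slc26a7, 0.428 against 0.403 for Cldn19 and 0.685 against 0.513 for Best1. The largest deviation of the reference was in control replicate 2. That library was also the lowest for the closest members, with Ttr at -0.89, Slc16a8 at -0.72 and Slc6a20a at -0.60, whereas Rrh was at -0.07. The distances thus lean on 1 library, and they were not calculated without it. These are descriptions over 6 libraries and were not tested. Best1, Slc26a7 and Cldn19 had counting errors of 25.8%, 23.9% and 17.1%, and how much of their distance is counting error was not tested.

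**Figure D3:**
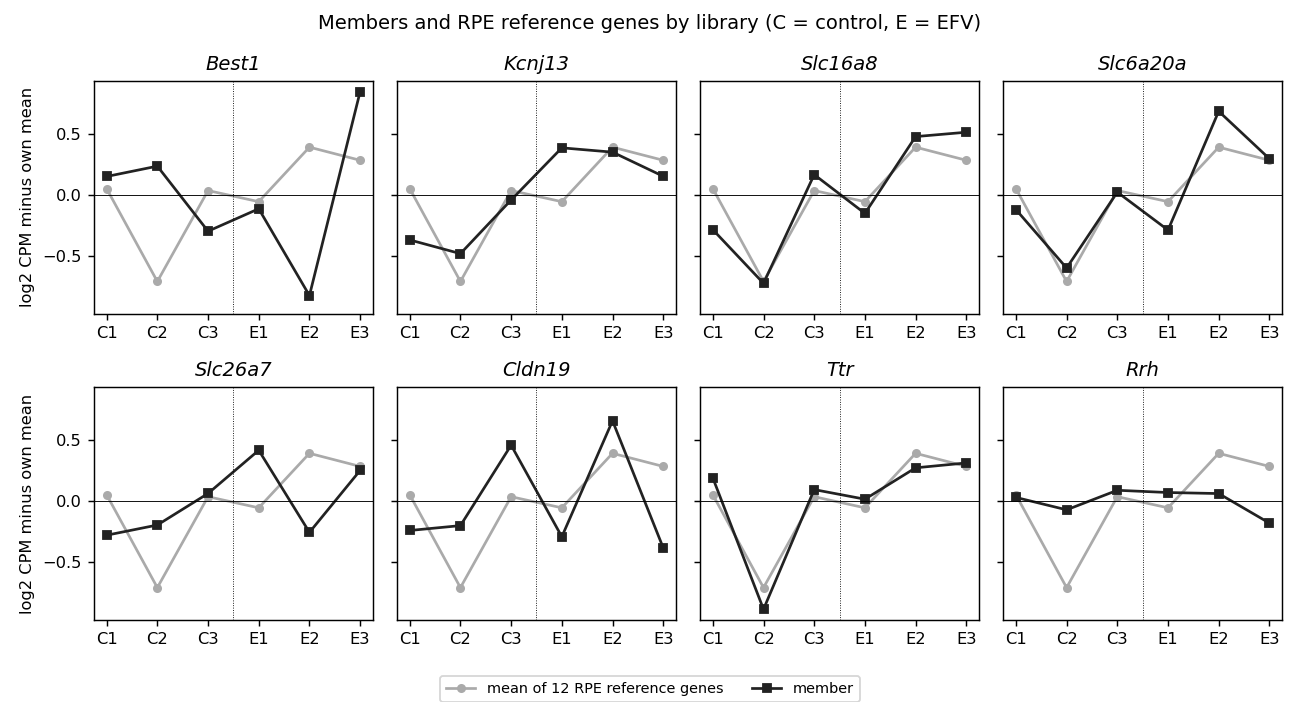
Log2 CPM of each member minus its own mean (dark squares) and the mean of the 12 RPE reference genes (grey circles) in the 6 libraries, with a dotted line between control (C) and EFV (E). Ttr, Slc16a8 and Slc6a20a dip with the reference in control replicate 2 (-0.71 for the reference), while Rrh stays flat.

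Relative to the RPE reference, the groups overlapped for all 8 members. The difference between EFV-treated and control mice in log2 CPM minus the mean of the reference was 0.18 for Kcnj13, 0.15 for Slc16a8, 0.05 for Slc6a20a and -0.01 for Ttr. It was -0.14 for Slc26a7, -0.43 for Cldn19, -0.45 for Rrh and -0.47 for Best1. On this scale control replicate 2 was the highest control for every member except Slc16a8 and Ttr. Best1 had -2.03 there, against -2.88 and -3.31 in control replicates 1 and 3. Slc26a7 had -2.20 against -3.05 and -2.69, and Rrh 2.75 against 2.09 and 2.17. The differences were not calculated without control replicate 2. The SDs within groups were 0.0996 to 0.164 for Ttr and 0.308 to 0.325 for Kcnj13. With only Rpe65, Lrat and Rgr as the reference, the difference was -0.02 for Kcnj13, -0.06 for Slc16a8, -0.15 for Slc6a20a and -0.22 for Ttr. The direction for Kcnj13, Slc16a8 and Slc6a20a thus turned with these reference genes. Rpe65 and Lrat were themselves called higher in EFV-treated mice at the study's limits. With 5 pigment genes only (Tyr, Tyrp1, Dct, Pmel and Mlana), no direction turned. The difference was then 0.13 for Kcnj13, 0.10 for Slc16a8, 0.00458 for Slc6a20a and -0.06 for Ttr. The difference for Rrh was -0.65 with Rpe65, Lrat and Rgr, and the EFV-treated libraries then lay below all controls. With the pigment genes it was -0.49 and the groups overlapped, as they did with all 12 reference genes. Without any reference, the log2 fold change of Rrh was -0.03. The share of all genes that separate on this relative scale was not calculated.

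**Figure D4:**
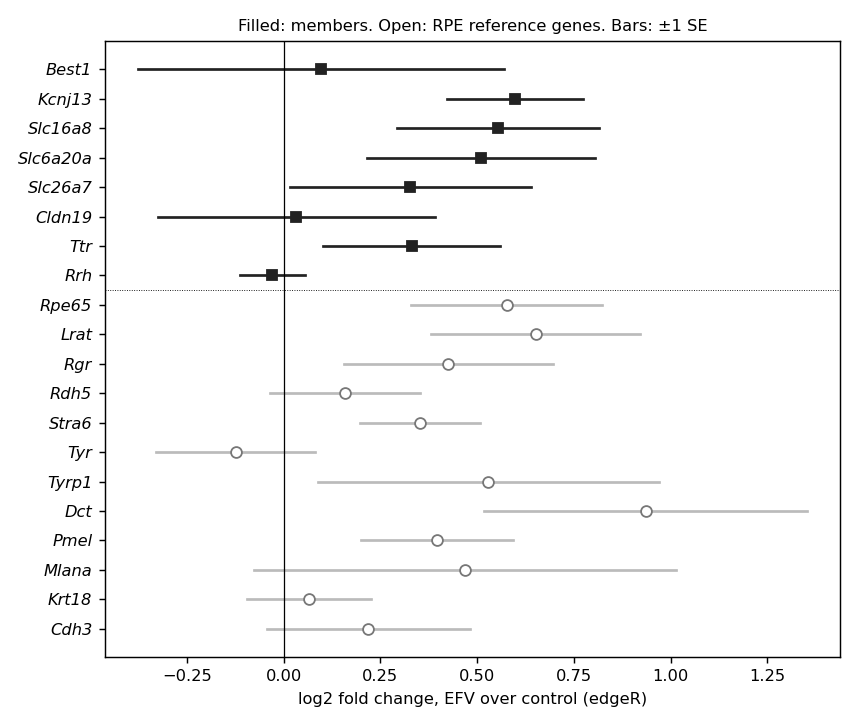
Log2 fold change of EFV-treated over control mice from edgeR for the 8 members (filled squares) and the 12 RPE reference genes (open circles), with bars of ± 1 SE. Rrh sits at -0.03 with a short bar, Kcnj13 at 0.60, and 11 of the 12 reference genes lie to the right of 0.

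Of the 12 RPE reference genes, 11 had a log2 fold change above 0, and 3 passed the study's limits in the edgeR fit, all higher in EFV-treated mice. These were Lrat, the retinol acyltransferase, with a log2 fold change of 0.65, Rpe65 with 0.58 and Stra6, the receptor for retinol-binding protein, with 0.35. Rpe65, Lrat and Stra6 are also in the study's own list. Each of these 3 calls was lost when some single libraries were left out, an alternative chosen after seeing the data. Without control replicate 2, Rpe65 was called at 0.29, while Lrat at 0.42 and Stra6 at 0.22 were not called; 9 of the 12 reference genes were then above 0, with a median of 0.14. Rpe65 was not called without control replicate 1 or without any 1 of the EFV replicates, at 0.55 to 0.65. Lrat was not called without control replicate 1, EFV replicate 1 or EFV replicate 2, at 0.55 to 0.61, and Stra6 not without control replicate 1, EFV replicate 2 or EFV replicate 3, at 0.26 to 0.39. Without control replicate 3 all 3 were called, Lrat at 1.06, Rpe65 at 0.83 and Stra6 at 0.44. The most abundant reference genes, Krt18 and Rdh5, had log2 fold changes of 0.07 and 0.16. Beside these, Kcnj13 had 0.60 and Rrh -0.03.

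Among 22 further genes of RPE ion and solute transport, 16 had a log2 fold change above 0 and 6 below, with a median of 0.03, and 1 passed the study's limits. This was Car12, a membrane carbonic anhydrase, with 0.687 ± 0.199 FPKM in the controls and 1.10 ± 0.288 in EFV-treated mice (SD, n = 3). Car12 is also in the study's own list. Car12 was not called without control replicate 1, control replicate 2, EFV replicate 2 or EFV replicate 3, with log2 fold changes of 0.44 to 0.70, and without control replicate 2 the list had 11 of 22 genes above 0. The most abundant genes of this list, which are also expressed in the neural retina, were level: Bsg, the chaperone of monocarboxylate transporters, had a log2 fold change of -0.05, Car2, a cytosolic carbonic anhydrase, 0.05, and Slc6a6, the taurine transporter, -0.06. Among 13 junction genes, 7 had a log2 fold change above 0 and 6 below, with a median of 0.04, and Tjp3, a scaffold of the tight junction, was the 1 gene past the limits, with 1.11 ± 0.0346 FPKM in the controls and 1.47 ± 0.163 in EFV-treated mice (SD, n = 3). Tjp3 was called in 1 of the 6 fits that left out a library, the one without EFV replicate 3, and had log2 fold changes of 0.31 to 0.40 in the others. The more abundant scaffold gene Tjp1 had a log2 fold change of 0.04.

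Some relatives of the members were far more abundant in these libraries than the members themselves, and few passed the limits. Kcnj14, at 232 ± 13.6 FPKM in the controls and 230 ± 14.0 in EFV-treated mice (SD, n = 3), was the most abundant of 11 inward rectifier genes tested, of which 0 passed the study's limits and 8 had a log2 fold change below 0. Of 13 other monocarboxylate transporter genes, 0 passed; Slc16a6 had 71.2 ± 1.01 FPKM in the controls and 75.3 ± 0.966 in EFV-treated mice, and Slc16a1 had 50.6 ± 4.13 and 50.1 ± 4.22 (SD, n = 3). In the SLC6 family 0 of 12, and in the SLC26 family 0 of 7, passed. Of 13 claudins tested, Cldn23 passed with 4.09 ± 0.557 FPKM in the controls and 5.21 ± 0.440 in EFV-treated mice (SD, n = 3), and the most abundant, Cldn12, had a log2 fold change of -0.00427. Among 3 opsins related to Rrh, Opn3, or encephalopsin, was lower in EFV-treated mice, with 1.497 ± 0.153 FPKM in the controls and 1.19 ± 0.162 in EFV-treated mice (SD, n = 3). Of 6 genes of retinol and thyroid hormone carriage, the family of function of Ttr, Stra6 was the 1 that passed, and the most abundant, Rbp3, had a log2 fold change of -0.07. Stra6 is also an RPE reference gene, so this is the same call as that given above. Of the 2 other bestrophins, 0 passed; Best3 had 2.73 ± 0.0961 and 2.63 ± 0.0945 FPKM (SD, n = 3). Cldn23 and Opn3 are also in the study's own list. Cldn23 was not called without control replicate 1, control replicate 3, EFV replicate 1 or EFV replicate 3, at log2 fold changes of 0.27 to 0.33. Opn3 was not called without control replicate 1, control replicate 2, EFV replicate 1 or EFV replicate 3, at -0.46 to -0.28. All these calls rest on the study's limits, which 3.01% of all genes passed, and no adjusted p in these lists was below 0.999 (edgeR, Benjamini-Hochberg).

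Markers of other cell types were compared in the same libraries. Over 10 rod genes, 4 had a log2 fold change above 0, 6 below and 1, the phosphodiesterase subunit gene Pde6g, was called lower, with a median of -0.04. Over 6 Müller glia genes the median was -0.03 with 0 called, over 8 endothelial genes -0.07 with 0 called, and over 5 genes of ciliary body and iris -0.02 with 0 called. Of 7 fibroblast genes, 1 was called higher (Col1a2, a collagen chain), and of 3 oligodendrocyte genes tested, 1 was called higher (Mbp, myelin basic protein). Pde6g, Col1a2 and Mbp are named here because they were called, and all 3 are also in the study's own list. Each lost its call in 3 or 4 of the 6 fits that left out a library. Those fits called 0 to 4 of the rod genes. All 7 lens genes tested were called lower after EFV (their median log2 fold change was -3.47), and all 7 were highest in control replicate 3. Without control replicate 3, 0 of the 7 were called, the median was -0.02, and 3 of them had log2 fold changes above 0, of 0.70 for Cryaa, 0.36 for Bfsp1 and 0.25 for Cryba1. The calls were also lost without any 1 of the EFV replicates, except that of Crygs without EFV replicate 3. Of the lens genes, Crybb1, Mip and Bfsp2 are also in the study's own list. In CPM, 1 of the 8 members was highest in control replicate 3, namely Rrh, against 16.3% of all genes tested. In FPKM, Rrh was highest in EFV replicate 1, at 19.1 against 18.69 in control replicate 3.

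The genes whose pattern over the 6 libraries was closest to the mean centred profile of the 8 members were sought among 11691 genes with a mean of at least 100 counts. The members' profile was -0.12, -0.37 and 0.07 in the controls and 0.01, 0.18 and 0.23 in EFV-treated mice on the log2 scale. Sema3b, a secreted semaphorin, was the closest at a root-mean-square distance of 0.0379, followed by Zfp668 at 0.0570, Smad7, an inhibitor of TGF-beta signalling, at 0.0577, Tsen54, a subunit of the tRNA splicing endonuclease, at 0.0618 and Egln3, an oxygen-dependent prolyl hydroxylase, at 0.0733. The FPKM of Sema3b were 1.78, 1.55 and 2.14 in the controls and 2.02, 2.14 and 2.44 in EFV-treated mice. Its lowest library was also control replicate 2, and its groups overlapped.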

How the data were processed

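RNAseq was carried out on 6 pooled libraries of retina plus RPE, 3 control and 3 EFV-treated. The authors aligned the filtered reads with Bowtie2 2.2.5 to mm10 and estimated with RSEM 1.2.12 the expected counts of each gene, which are not normalized; the submitters' processing notes also list HISAT2 2.0.4. The FPKM values deposited by the authors are those counts per length and library total, rounded to 0.01, and a gene absent from a library was taken as 0. The annotation release, strandedness and read filter are not given in the sources used here.

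Samples were grouped by their treatment labels. Expected counts were rounded to whole numbers. Genes that reached 10 counts in 3 or more of the 6 libraries were fitted with edgeR 4.0.16 (R 4.3.3; TMM scaling, quasi-likelihood test, Benjamini-Hochberg adjustment over all 15537 genes). Fold changes come from the counts, and 95% intervals from the edgeR log2 fold change, its SE and the t distribution. The limits of the study were an unadjusted p of at most 0.05 and a log2 fold change of at least 0.0976 in size. The depth of 23455167 to 24590278 counts per library gave the members a counting error of 3.51% to 25.8%; counting errors cover counting only, and reads without molecular identifiers are not independent molecules. No 2 libraries agreed within sampling noise. DESeq2 1.42.0, limma 3.58.1, a Poisson model, other scalings, filters, a covariate, the replicate number as a block and leaving out each library were tried as alternatives. Coordinates are from GENCODE vM21 on GRCm38 (mm10) and promoters from RefSeq on GRCm38.p6.

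The members, gene lists and tests were chosen with earlier results of these data known. All members were named. Some genes, such as Stra6, Rgr and Cdh3, were in more than 1 of the gene lists, so the lists are not independent of each other. Of the related lists, counts were given over the whole list, and up to 3 genes with the highest mean FPKM and up to 3 with the smallest p were eligible by name; 1 of these is not reported here. The 5 nearest patterns came from genes with an Entrez identifier. Adjacent genes, Cldn2 and the Best2 comparison were chosen after their values were seen.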

Additional observations from a re-analysis of the deposited data

How the results depend on the processing

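The number of genes at an adjusted p of 0.05 was 0 with edgeR, 11 with DESeq2 and 2043 with the Poisson model, and 0 to 1 when 1 library was left out (1 without EFV replicate 1). At the study's limits it was 467 with edgeR (228 higher and 239 lower), 269 with DESeq2, 2305 with the Poisson model and 389 to 576 when 1 library was left out. Scaling by total counts gave 288 higher and 159 lower, and limma on log2(FPKM + 0.01), (FPKM + 0.1) and (FPKM + 1) gave 289 and 189, 297 and 192, and 297 and 197. The members past these limits numbered 1 in the edgeR fit, 2 with DESeq2, 2 with Entrez-identified genes only, 4 with the Poisson model, 0 with the RPE reference as a covariate and 1 to 3 when 1 library was left out. The median log2 fold change of the members kept its direction under every alternative, from 0.09 with the RPE reference as a covariate to 0.45 without control replicate 3.

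Directions turned for 4 members, none of which had been called by edgeR with all libraries. For Cldn19 the log2 fold change was -0.30 with the RPE reference as a covariate, -0.17, -0.13 and -0.032 with limma on log2(FPKM + 0.01), (FPKM + 0.1) and (FPKM + 1), and -0.41 to 0.31 when 1 library was left out. For Best1 it was -0.076 and -0.025 with limma at the 0.01 and 0.1 pseudocounts and -0.54 to 0.44 when 1 library was left out. For Ttr it was -0.10 with the RPE reference as a covariate. For Rrh it was 0.00611, 0.00610 and 0.00596 with limma at the 3 pseudocounts and -0.073 to 0.049 when 1 library was left out. Among the called genes of the other lists, an alternative added after seeing the data, the direction turned for 3 lens genes, whose values ranged from -4.12 to 0.70 (Cryaa), -4.20 to 0.25 (Cryba1) and -4.18 to 0.36 (Bfsp1) when 1 library was left out. The cause was not tested, except that each of the 3 turned only without control replicate 3.

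Same-numbered control and EFV-treated libraries had correlations of their deviations from the group means of 0.125, 0.0832 and 0.0992; each library correlated best with its own number, a hint from the data only, since nothing in the labels ties the numbers. With the replicate number as a block, 2 members (Kcnj13 and Slc16a8) and 514 genes passed the study's limits, and the log2 fold change of Cldn19 was -0.00335.

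Best1, Slc26a7 and Cldn19 had the fewest counts, with means of 15 to 34.3 per library, and only Slc26a7 of the 8 members varied no more than counting error. The pools are 3 per group, and no exact test over libraries can go below 0.1.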
